A study of Mus musculus with 6 samples.

Results

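The 10 genes described here, of macrophages and of the complement starter C1q, were followed in mouse leukemic blasts: C1qa, C1qb, C1qc, Vcam1, Cd163, Mrc1, Adgre1, Apoe, Axl and Mertk. They were taken by symbol out of 53458 genes summed from the deposited tables, and all 10 passed the filter on low counts. The study sequenced RNA of blasts from the bone marrow of transplanted mice with acute myeloid leukemia, in 3 libraries with the G643W change on both copies of Asxl1 (G643W) and 3 libraries with wild-type Asxl1 (WT). The samples of both groups were labelled with the genotype Cebpa-/p30 and a C57/BL6 background. In the blasts a null copy of the myeloid transcription factor gene Cebpa therefore stood beside a copy that yields the short p30 protein. No library was labelled with intact Cebpa. Sorting kept cells that carried CD45.2, were Mac1 low and Gr1 low, and lacked Ter119, B220 and CD3; F4/80 was not among the gated antigens. The question was what the mutant Asxl1 does to gene expression in leukemia already driven by Cebpa. The labels give no age or sex and do not say whether the libraries of a genotype come from separate animals or leukemias. The p-values therefore rest on differences among 6 libraries that may in part be technical.

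C1q is the recognition molecule of the classical complement pathway, built from 3 related chains that are encoded side by side and are made in blood-forming tissue mostly by macrophages. Resident macrophages of the marrow engulf dying cells and the nuclei that red cell precursors shed, and they support maturing red cells through adhesion molecules such as Vcam1. The genes followed here cover that work: C1q chains that tag debris, scavenger and adhesion receptors, the receptor kinases Axl and Mertk that recognise dying cells, and Apoe, which carries cholesterol out of loaded phagocytes.

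None of the 10 genes differed between the Asxl1 genotypes past the threshold, and in none were the groups free of overlap. With edgeR's quasi-likelihood test at an adjusted p under 0.05, 0 of the 10 were called, where 25 of 20654 genes tested (0.121%) were called, 0.0533% higher and 0.0678% lower in G643W. DESeq2 called 0 of the 10, where it called 428 of 20512 genes tested. Limma on log2(TPM + 1) and on log2(TPM + 0.1) called 0 of the 10, where they called 20 and 43 of 20654 genes tested. With so few genes called, a count of 0 among 10 says little about these 10 genes. At an unadjusted edgeR p under 0.05 there was 1 of the 10, C1qa, against 9.66% of all genes tested. The log2 fold change was negative in 9 of the 10, beside 10486 of 20654 genes tested. Its median was -1.30 over the 10, beside -0.01 over all genes tested. The values of Adgre1 (-0.07), Mrc1 (-0.12) and Vcam1 (-0.21) were small and changed sign under 7, 6 and 7 of 16 alternatives. The 3 C1q chains shared 1 order of libraries, so the 9 are not independent readings of direction. In counts scaled to library size (CPM), the genotypes were free of overlap in 0 of the 10, against 15.9% of all genes tested.

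The 10 genes spread widely between libraries of the same genotype. The within-genotype standard deviation of log2 CPM had a median of 1.58 over the 10 genes, beside 0.52 over all genes tested, and 9 of the 10 lay above that value. Vcam1, at 2.76, was exceeded by 1.0% of all genes tested, while Adgre1, at 0.36, was exceeded by 69.8%. The library with the highest level in TPM (scaled to transcript length and library size) was WT library 1 for 4 of the genes, WT library 3 for 2, G643W library 1 for 2, and WT library 2 and G643W library 3 for 1 each. The 10 genes therefore did not share 1 order of libraries.

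**Figure D1:**
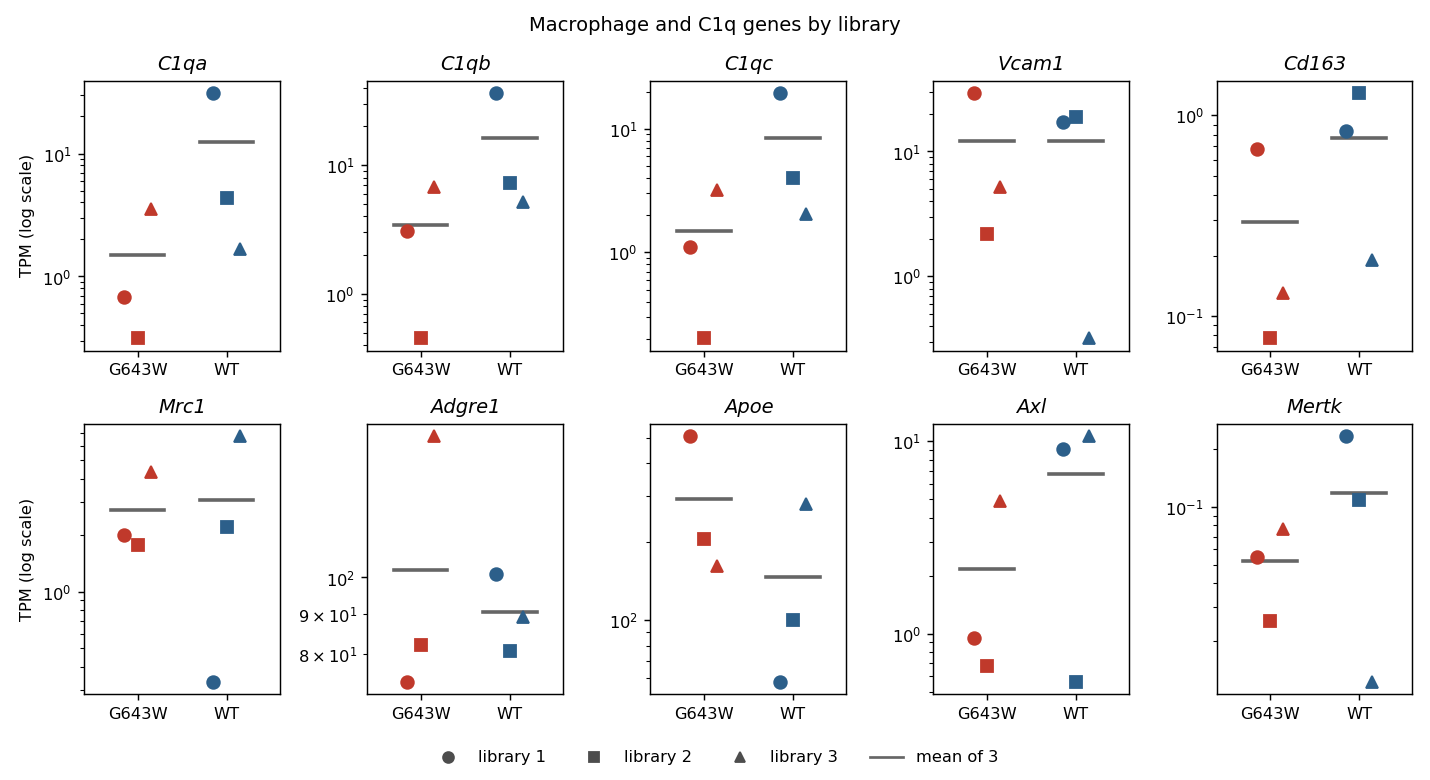
TPM of each of the 10 genes on a log axis, with the G643W libraries in red on the left and the WT libraries in blue on the right. Symbols give the library number and grey lines the arithmetic mean of 3 libraries. The genotypes overlap in every panel, and Vcam1, Mrc1, Apoe, Axl and Mertk have their lowest library in WT.

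The C1q genes lie in a row on the minus strand of chromosome 4 (GRCm38), with C1qb at 136880129 to 136886187, C1qc at 136889804 to 136893065 and C1qa at 136895917 to 136898803. Together they span 18675 bases. Promoter sequence was looked up because the 3 chains moved together across libraries while Apoe went the other way. RefSeq entries for GRCm38.p6 were matched for 7 of the 10 genes. C1qa, Vcam1 and Adgre1 had no entry, so the promoter of the A chain was not examined. The sequences are bases of the minus strand that precede both the RefSeq and the GENCODE start, 250 for C1qb (chr4:136886201-136886450), 99 for C1qc (chr4:136893066-136893164) and 250 for Apoe (chr7:19699189-19699438). Capitals mark exact matches on either strand to TGCTGA, a core of sites bound by MAF factors, or to GAGGAA, a form of the core bound by the myeloid factor PU.1, and the matches do not overlap each other.
C1qb: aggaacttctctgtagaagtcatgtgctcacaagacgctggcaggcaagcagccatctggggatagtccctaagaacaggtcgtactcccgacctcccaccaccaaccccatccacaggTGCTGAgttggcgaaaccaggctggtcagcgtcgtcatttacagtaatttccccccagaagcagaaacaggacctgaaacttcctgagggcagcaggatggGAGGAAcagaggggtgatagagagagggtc
C1qc: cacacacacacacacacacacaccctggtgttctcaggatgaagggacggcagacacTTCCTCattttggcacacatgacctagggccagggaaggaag
Apoe: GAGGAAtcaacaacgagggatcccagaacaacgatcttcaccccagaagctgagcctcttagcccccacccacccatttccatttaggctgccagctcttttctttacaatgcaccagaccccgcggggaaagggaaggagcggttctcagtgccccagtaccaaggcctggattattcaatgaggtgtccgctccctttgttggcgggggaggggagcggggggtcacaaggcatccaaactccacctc

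Each of the 3 stretches held GAGGAA or its reverse complement TTCCTC once, and C1qb alone of the 3 held TGCTGA. In the 250 bases before the start, GAGGAA in either orientation was in 23.3% and TGCTGA in 16.1% of 32851 RefSeq promoter entries, so both are common and a match only describes the letters. Among the other members with an entry, Mrc1 had 3 matches to GAGGAA and Axl 1, while Mertk and Cd163 had none, and none of these 4 had TGCTGA.

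The 3 C1q chains were low in all G643W libraries and in WT libraries 2 and 3, and high in WT library 1 alone. C1qb, the B chain, had 3.10, 0.45 and 6.75 TPM in G643W libraries 1 to 3, against 36.2, 7.28 and 5.16 TPM in WT libraries 1 to 3. C1qa, the A chain, had 0.69, 0.31 and 3.51 TPM in G643W libraries and 30.9, 4.38 and 1.69 TPM in WT libraries. C1qc, the C chain, had 1.11, 0.20 and 3.17 TPM in G643W libraries and 19.4, 4.002 and 2.04 TPM in WT libraries. For each chain G643W library 3 lay above WT library 3, so the genotypes overlapped. Summed over the chains, WT library 1 had 86.4 TPM, where the next highest, WT library 2, had 15.7 TPM and the lowest, G643W library 2, had 0.96 TPM. The read numbers behind the lowest values were small, with 64, 93 and 48 estimated reads for C1qa, C1qb and C1qc in G643W library 2.

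In the count model the log2 fold change, G643W over WT, was -3.16 ± 1.29 for C1qa, -2.37 ± 1.05 for C1qb and -2.65 ± 1.13 for C1qc (SE, edgeR adjusted p = 0.511, 0.523 and 0.514). Mean levels were 1.50 ± 1.75 and 12.3 ± 16.1 TPM for C1qa, 3.44 ± 3.17 and 16.2 ± 17.3 TPM for C1qb, and 1.50 ± 1.52 and 8.47 ± 9.48 TPM for C1qc in G643W and WT blasts (SD, n = 3 each). In WT the standard deviations exceeded the means. WT library 1 set much of the size of these differences. Without it the log2 fold changes were -1.23, -1.05 and -1.21 for C1qa, C1qb and C1qc (edgeR adjusted p = 0.683, 0.695 and 0.680), and without G643W library 3 they were -4.70, -3.31 and -3.81 (edgeR adjusted p = 0.915 for each). In bulk RNA of sorted cells, fewer cells of a type and less RNA per cell cannot be told apart.

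The order of the libraries was identical for the 3 chains, from WT library 1 through WT library 2, G643W library 3, WT library 3 and G643W library 1 to G643W library 2. Over the 6 libraries Pearson's r of log2 CPM was 0.952 between C1qa and C1qb, 0.975 between C1qa and C1qc and 0.995 between C1qb and C1qc, with Spearman's rho of 1 in each pair. These are descriptions over 6 points that share library and depth. The nearest protein-coding genes outside the cluster did not share the level. Ephb2, an ephrin receptor gene on the C1qb side, had 0.309, 0.092 and 0.231 TPM in G643W libraries and 0.443, 0.088 and 0.616 TPM in WT libraries, and Epha8, on the C1qa side, was at most 0.018 TPM in any library.

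The balance between the chains was not fixed. C1qa took 13.3% of the reads of the 3 genes in G643W library 1 (exact 95% binomial interval 10.9 to 16.1), 31.2% in G643W library 2 (24.95 to 38.05) and 24.9% in G643W library 3 (23.1 to 26.8). In WT it took 34.1% in library 1 (33.4 to 34.9), 26.8% in library 2 (25.2 to 28.5) and 18.0% in library 3 (16.1 to 20.1). The C1qa share in G643W library 1 and WT library 3 lay below the intervals of the other 4 libraries, and these were also the libraries with the most Apoe. C1qc took between 23.4% and 28.2% of the reads in all 6 libraries. The intervals cover counting error only.

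**Figure D2:**
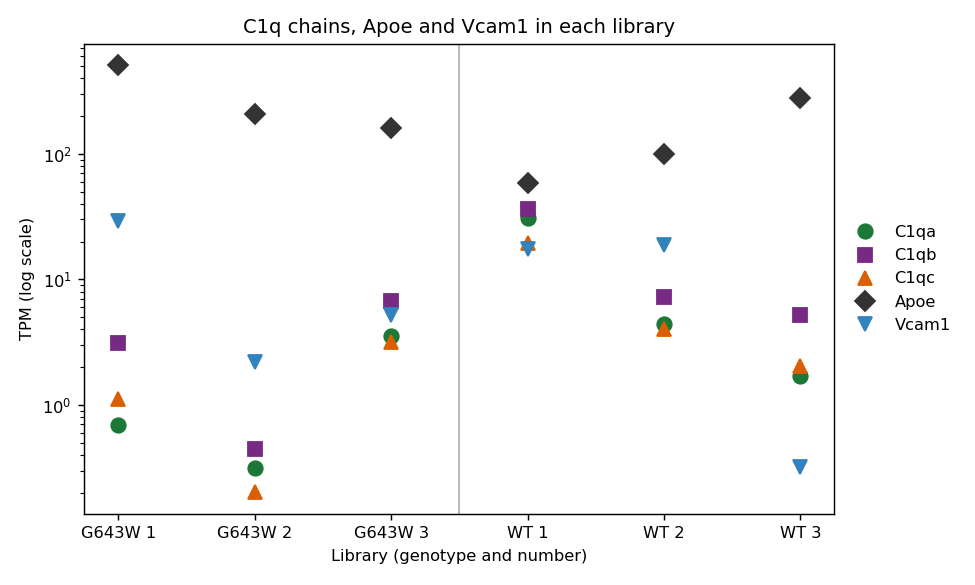
TPM on a log axis of the C1q chains, Apoe and Vcam1 in each library, with G643W libraries left of the vertical line and WT libraries right of it. The 3 C1q chains keep 1 order of libraries and peak in WT library 1 (86.4 TPM summed), where Apoe is lowest at 58.2 TPM, and Vcam1 follows neither.

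Apoe, the apolipoprotein that phagocytes release with cholesterol, was the most abundant member and the sole one with a positive fold change. It lies on chromosome 7 at 19696109 to 19699188, minus strand. Its level was 507, 206 and 162 TPM in G643W libraries 1 to 3, against 58.2, 99.95 and 280 TPM in WT libraries 1 to 3. G643W library 1 was highest and WT library 3 second, so the genotypes overlapped. The means were 291 ± 188 TPM in G643W and 146 ± 118 TPM in WT blasts (SD, n = 3 each), with a log2 fold change of 0.82 ± 0.63 (SE, edgeR adjusted p = 0.631). Leaving out WT library 3 gave 1.64 (edgeR adjusted p = 0.297) and leaving out G643W library 1 gave 0.30 (edgeR adjusted p = 0.822).

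Across the 6 libraries Apoe ran against the C1q chains, with Pearson's r of log2 CPM of -0.85 to C1qa, -0.65 to C1qb and -0.72 to C1qc, and Spearman's rho of -0.83 to each. This was not particular to C1q, as r was -0.79 to Adgre1 and -0.77 to Mertk. Adgre1 and Mertk ran with each C1q chain, at rho of 0.77 and 0.83. Mrc1 alone of the members had a positive r to Apoe, 0.60. Of 21 genes listed around Apoe for lipid transport, 0 passed the threshold in either direction, with a median log2 fold change of -0.09. The apolipoprotein genes beside Apoe on the chromosome had positive values that did not pass, 1.46 for Apoc1, 0.66 for Apoc4 and 0.89 for Apoc2. The members with the lowest p were the cholesterol exporters Abca1 and Abcg1. Abca1 had 0.0449 ± 0.0435 TPM in G643W and 0.415 ± 0.168 TPM in WT blasts (log2 fold change -3.19 ± 0.775, SE, edgeR adjusted p = 0.409), and Abcg1 had 2.60 ± 1.01 and 6.37 ± 1.99 TPM in G643W and WT blasts (-1.41 ± 0.35, SE, edgeR adjusted p = 0.409). Neither passed; for both exporters the G643W libraries were free of overlap with WT and lower, as for 8.89% of all genes tested. Nr1h3, the oxysterol receptor LXR alpha, had 0.53, 0.39 and 0.33 TPM in G643W libraries and 1.46, 0.55 and 0.68 TPM in WT libraries.

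Adgre1, which encodes F4/80, the antigen most used to mark mouse macrophages, was steady. It lies on chromosome 17 at 57358691 to 57483527, plus strand. Adgre1 had 73.9, 82.3 and 150 TPM in G643W libraries and 101.05, 80.9 and 89.1 TPM in WT libraries. Its log2 fold change was -0.07 ± 0.29 (SE, edgeR adjusted p = 0.942), and this small value changed sign with the scaling of gene length and with the library left out. Its highest library exceeded its lowest by 2.04-fold, against 80.5-fold to 98.6-fold for the C1q chains.

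TPM of Apoe and Adgre1 leaned on annotated transcripts under 600 bases. These held 6.1, 6.8 and 7.6% of Adgre1 reads but 61.6, 64.0 and 65.8% of its TPM in G643W libraries 1 to 3, and 4.8, 5.9 and 6.8% of reads but 56.1, 60.1 and 63.3% of TPM in WT libraries 1 to 3. For Apoe they held between 26.1% and 35.7% of reads and between 59.2% and 68.9% of TPM over the 6 libraries. Read on the transcript with the most reads alone, the level was 33.6 ± 11.4 TPM in G643W and 34.4 ± 6.60 TPM in WT for the 3238-base transcript of Adgre1, and 82.6 ± 56.9 and 46.3 ± 37.8 TPM in G643W and WT for the 1104-base transcript of Apoe (SD, n = 3 each). The order of the members by level is therefore less certain for these genes than their comparison between libraries.

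**Figure D3:**
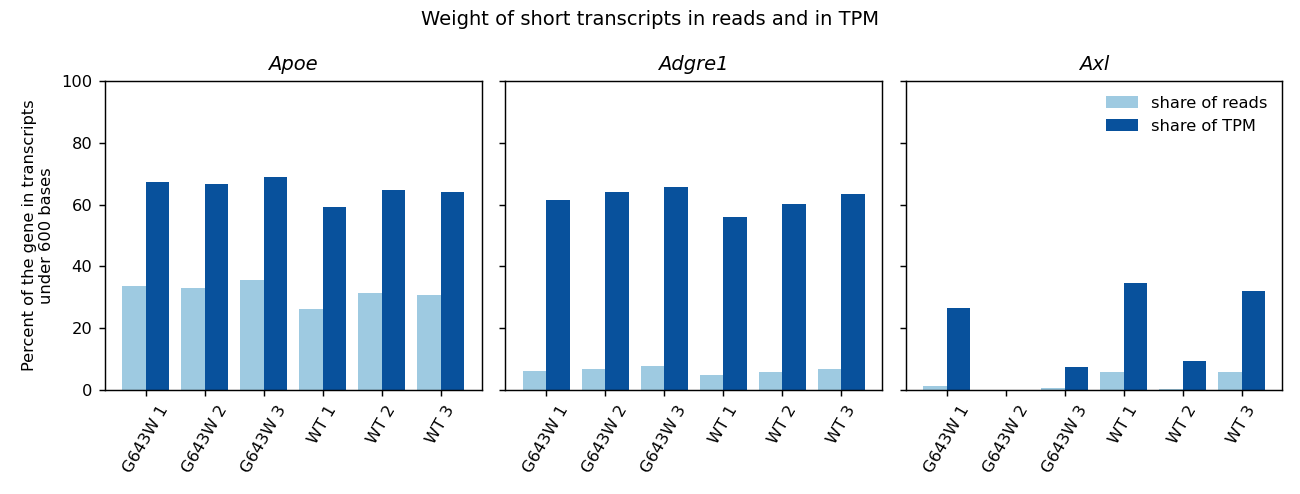
Percent of each gene's reads (light bars) and of its TPM (dark bars) in annotated transcripts under 600 bases, for Apoe, Adgre1 and Axl in each library, G643W left of WT. In Adgre1 a read share of at most 7.6% corresponds to 56.1% or more of TPM in every library.

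Vcam1, the adhesion molecule that binds integrin VLA-4 on blood precursors, had the widest within-genotype spread of the 10. It lies on chromosome 3 at 116109949 to 116129688, minus strand. Vcam1 had 29.2, 2.19 and 5.23 TPM in G643W libraries, against 17.3, 18.8 and 0.32 TPM in WT libraries. The highest value was in G643W and the lowest in WT, and the means were 12.2 ± 14.8 and 12.1 ± 10.3 TPM in G643W and WT blasts (SD, n = 3 each). The log2 fold change was -0.21 ± 1.37 (SE, edgeR adjusted p = 0.959), and without G643W library 1 it was -1.97 (edgeR adjusted p = 0.468), while leaving out any of G643W libraries 2 and 3 and WT libraries 1 and 2 turned its sign. The 3469-base transcript took the most reads in every library, between 74.3% and 93.8%. WT library 3, with 130 estimated reads, stood 58.9-fold below WT library 2 in TPM.

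Of 13 genes listed for Vcam1 binding and its neighbours in adhesion, 12 were tested and 0 passed in either direction (median log2 fold change -0.31). Itgb1, the integrin chain that partners Itga4 in the Vcam1 receptor, had 22.9 ± 13.1 TPM in G643W and 45.5 ± 13.7 TPM in WT blasts (log2 fold change -1.06, edgeR adjusted p = 0.493), and Icam1, another integrin ligand, had 3.62 and 5.59 TPM on average in G643W and WT blasts (-0.71, edgeR adjusted p = 0.503). For markers of endothelial and stromal cells, which also make Vcam1, summed TPM ran from 12.1 to 30.6 in G643W and 19.1 to 43.7 in WT for 10 endothelial genes, and from 1.90 to 2.29 in G643W and 0.98 to 3.12 in WT for 11 stromal genes. Of the endothelial genes 5 were under 1 TPM in all libraries, among them the defining genes Cdh5 and Kdr, and of the stromal genes 9, among them Cxcl12, Lepr and Pdgfra. Pecam1, an adhesion molecule of endothelium that some blood cells also carry, was not low, with 23.9, 8.04 and 13.4 TPM in G643W libraries and 16.1, 30.4 and 26.2 TPM in WT libraries. Egfl7 had 4.87, 1.84 and 2.68 TPM in G643W libraries and 1.59, 3.72 and 13.7 TPM in WT libraries. It was thus highest in WT library 3, where Vcam1 was lowest. Flt1, Vwf and Plvap reached 1.86, 1.21 and 1.01 TPM in their highest libraries. Pdgfrb, a receptor of pericytes and other stromal cells, had 1.27, 0.0578 and 0.171 TPM in G643W libraries and 2.60, 1.61 and 0.376 TPM in WT libraries. Like Vcam1, Pdgfrb was highest in G643W library 1 within G643W and lowest in WT library 3 within WT. Col1a1, the other stromal gene that reached 1 TPM, went the other way in these libraries. It had 0.265, 1.56 and 1.89 TPM in G643W libraries and 0.0368, 0.0911 and 0.386 TPM in WT libraries. The part of other cell types in the Vcam1 spread was not tested.

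The scavenger receptors Cd163 and Mrc1 also varied within genotypes. Cd163, the receptor for haemoglobin bound to haptoglobin (plus strand of chromosome 6, 124304656 to 124330527), had 0.678, 0.0772 and 0.131 TPM in G643W libraries and 0.833, 1.29 and 0.189 TPM in WT libraries. WT library 3 and G643W libraries 2 and 3 were the low ones. Its log2 fold change was -1.43 ± 0.96 (SE, edgeR adjusted p = 0.595), and between -2.77, without G643W library 1, and -0.87, without WT library 2. Salmon's estimates for Cd163 switched between similar transcripts. The 4443-base transcript took 351, 0 and 0 estimated reads in G643W libraries 1 to 3 and 314, 542 and 0 in WT libraries 1 to 3, while the 4404-base transcript took 0, 43.5 and 85.5 in G643W and 184, 24.7 and 126 in WT libraries, so the gene sum is firmer than either transcript.

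Mrc1, the mannose receptor CD206 (plus strand of chromosome 2, 14229392 to 14332057), had 2.01, 1.79 and 4.33 TPM in G643W libraries, against 0.33, 2.21 and 6.71 TPM in WT libraries. WT libraries held both its lowest and its highest value, 20.1-fold apart. Its log2 fold change was -0.12 ± 0.91 (SE, edgeR adjusted p = 0.964), and without WT library 3 it was 1.29 (edgeR adjusted p = 0.508). WT library 1, the highest for the C1q chains, was the lowest for Mrc1.

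Of 13 matched genes for haem and iron handling downstream of Cd163, 12 were tested and 0 passed in either direction (median 0.15). Slc40a1, ferroportin, the iron exporter of macrophages, had 25.6, 88.4 and 56.2 TPM in G643W libraries and 0.17, 1.71 and 14.9 TPM in WT libraries. The G643W libraries were all higher, as for 7.05% of all genes tested, with a log2 fold change of 2.70 ± 0.98 that did not pass (SE, edgeR adjusted p = 0.493). Ftl1, ferritin light chain, had 848 and 1400 TPM on average in G643W and WT blasts (-0.84, edgeR adjusted p = 0.534). Spic, the transcription factor of iron-recycling macrophages, was at most 0.83 TPM.

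Axl and Mertk belong to the TAM receptor kinases, which bind the bridging proteins Gas6 and Pros1 on dying cells. Axl (chromosome 7, 25757273 to 25788705, minus strand) had 0.95, 0.68 and 4.89 TPM in G643W libraries, against 9.07, 0.56 and 10.6 TPM in WT libraries. It was high in WT libraries 1 and 3 and in G643W library 3 and low in the other 3. Its log2 fold change was -1.33 ± 0.80 (SE, edgeR adjusted p = 0.572), with values from -2.11 to -0.83 when 1 library was left out. A retained-intron transcript of 602 bases took reads in the 3 high libraries alone and a protein-coding transcript of 563 bases took reads in WT libraries 1 and 3 alone, and both added to TPM. On the 4265-base transcript alone Axl had 0.67, 0.58 and 1.94 TPM in G643W and 3.07, 0.48 and 3.64 TPM in WT libraries, in the same high and low libraries.

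Mertk (plus strand of chromosome 2, 128698956 to 128802894) was the lowest member, with 30, 21 and 47 estimated reads in G643W libraries and 154, 74 and 8 in WT libraries. In TPM it had 0.0546, 0.0255 and 0.0771 in G643W and 0.233, 0.109 and 0.0123 in WT libraries, so WT held both its highest and its lowest value. Its log2 fold change was -1.28 ± 0.95 (SE, edgeR adjusted p = 0.621), and without WT library 1 it was -0.41 (edgeR adjusted p = 0.876). Tyro3, the other TAM kinase, was at most 0.0504 TPM and did not pass the filter on low counts.

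Of 23 genes listed for TAM signalling and engulfment, 20 were tested and 0 passed in either direction (median -0.41). Without overlap between the genotypes in CPM, 5 were lower and 0 higher in G643W, beside 8.89% lower and 7.05% higher of all genes tested. The ligand Pros1 had 0.0626, 0.14 and 0.354 TPM in G643W libraries and 0.39, 0.60 and 9.41 TPM in WT libraries (log2 fold change -4.05 ± 1.32, SE, edgeR adjusted p = 0.487). Mfge8, a bridging protein that links dying cells to integrins, had 1.69, 0.36 and 0.65 TPM in G643W libraries and 3.99, 2.69 and 1.52 TPM in WT libraries (-2.03 ± 0.65, SE, edgeR adjusted p = 0.487). The ligand Gas6 was at most 0.23 TPM.

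**Figure D4:**
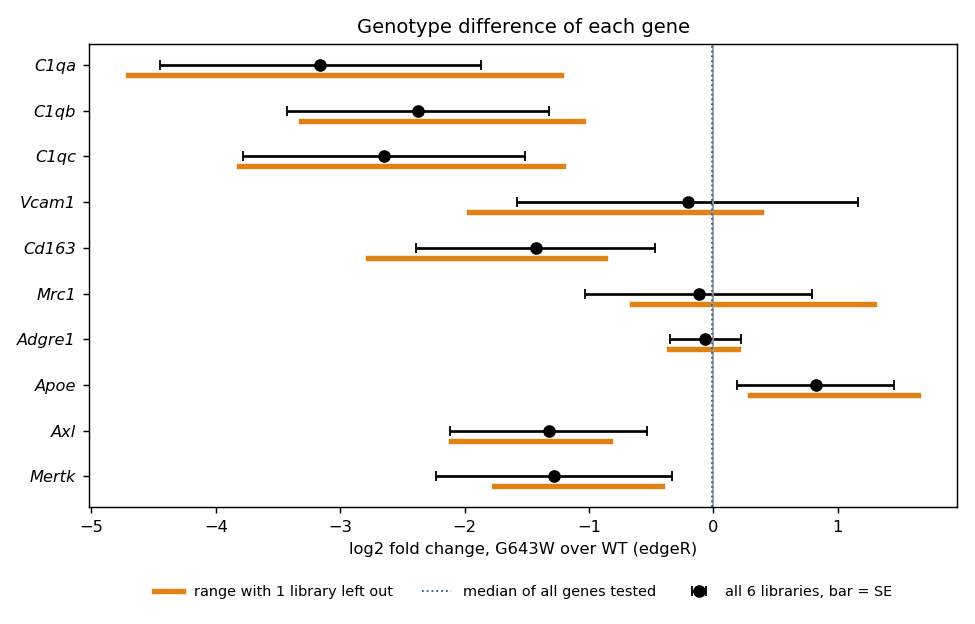
Log2 fold change of each gene, G643W over WT, from edgeR with its SE (black) and the range of the value when each library was left out in turn (orange); the dotted line is the median of all genes tested (-0.01). The C1q chains lie lowest, from -3.16 to -2.37, Apoe alone is above 0, and the leave-out ranges of Vcam1, Mrc1 and Adgre1 cross 0.

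Ordered by mean TPM over all libraries, the members ran from Apoe (219) and Adgre1 (96.3) through Vcam1 (12.2), C1qb (9.82), C1qa (6.91), C1qc (4.98), Axl (4.45) and Mrc1 (2.90) to Cd163 (0.53) and Mertk (0.085). Among neighbours in that order, the ranges over libraries were separate between Adgre1 and Vcam1 alone, and all other neighbours overlapped. WT library 1 set the place of C1qa and C1qc. Without it, an alternative chosen after seeing the data, the means were 4.55 TPM for C1qb, 3.53 for Axl, 3.41 for Mrc1, 2.12 for C1qa and 2.11 for C1qc, so that C1qa and C1qc stood below Axl and Mrc1.

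The label of macrophage genes was checked against other defining markers. Genes that macrophages share with monocytes were plentiful, with Csf1r, the receptor for the growth factor M-CSF, at 40.1, 13.1 and 29.4 TPM in G643W libraries and 63.0, 34.9 and 34.5 TPM in WT libraries. Several markers of resident tissue macrophages were near 0: Timd4, Clec4f, Marco, Vsig4 and Cd5l were under 1 TPM in every library, and Siglec1 was at most 0.23 TPM in G643W libraries and 2.47, 0.0141 and 0.161 TPM in WT libraries. Others were not. Lyve1, a hyaluronan receptor of some resident macrophages and of lymphatic vessels, had 0.0383, 6.74 and 4.23 TPM in G643W libraries and 0.0692, 0.0663 and 0.493 TPM in WT libraries (log2 fold change 4.15 ± 1.64, SE, edgeR adjusted p = 0.503). It was high in the G643W libraries 2 and 3 and lowest in G643W library 1, so the genotypes overlapped. Stab1, a scavenger receptor of macrophages and sinusoidal endothelium, had 30.4, 24.3 and 28.6 TPM in G643W libraries and 35.3, 14.9 and 26.99 TPM in WT libraries. In CPM it was less even, with 5.23, 10.2 and 21.1 in G643W libraries and 23.8, 7.52 and 15.2 in WT libraries. Only 358 estimated reads lay behind the 30.4 TPM of G643W library 1. Its TPM is therefore an uncertain measure of its level, and its transcripts were not examined.

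**Figure D5:**
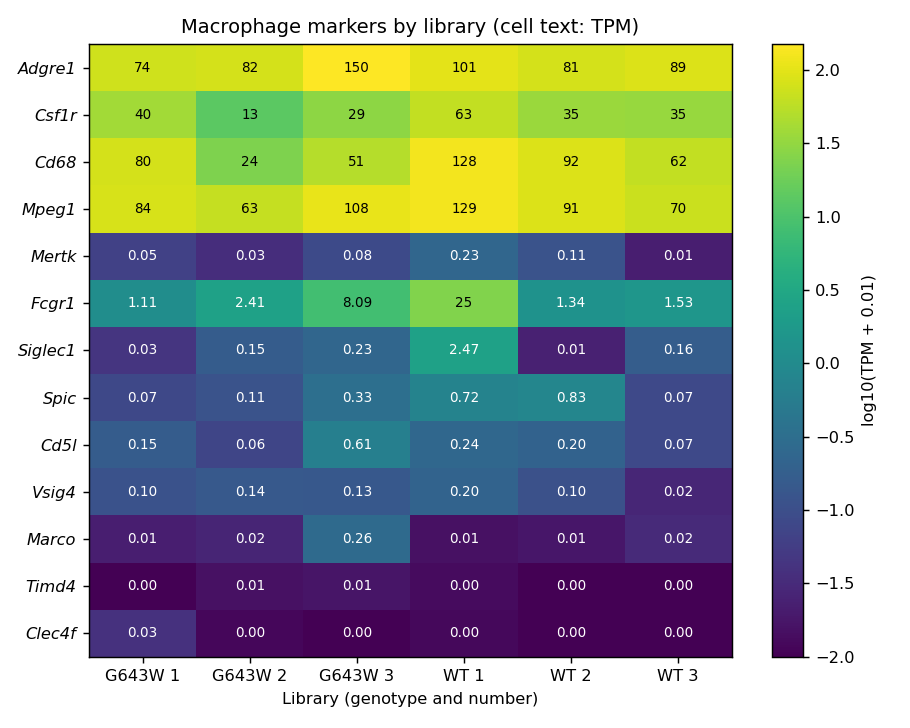
TPM of 13 macrophage markers in each library, printed in the cells and coloured by log10(TPM + 0.01), G643W left of WT. Adgre1, Csf1r, Cd68 and Mpeg1 are at 13.1 TPM or more in every library, while Vsig4, Marco, Cd5l, Timd4 and Clec4f stay under 1 TPM.

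Further macrophage genes gave the same count. Of 34 listed receptors and enzymes 30 were tested and 0 passed in either direction, with a median log2 fold change of -0.58. Ctss, the lysosomal protease cathepsin S, had 83.3, 35.7 and 113 TPM in G643W libraries and 450, 200.3 and 104 TPM in WT libraries (-1.81, edgeR adjusted p = 0.489), and Clec10a, a galactose-binding lectin, had 8.74 ± 6.28 and 28.5 ± 9.76 TPM in G643W and WT blasts (-1.58, edgeR adjusted p = 0.493). Of 23 transcription factors 22 were tested and 0 passed (median -1.06), with Irf4 at 0.0733 ± 0.0234 and 1.64 ± 1.46 TPM (-4.38 ± 0.91, SE, edgeR adjusted p = 0.327) and Irf8, which directs monocyte and dendritic fate, at 12.3 ± 10.5 and 38.7 ± 2.10 TPM in G643W and WT blasts (-1.81 ± 0.51, SE, edgeR adjusted p = 0.454).

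Among 28 genes that work with C1q in complement, 22 were tested and 0 passed in either direction (median 0.01). The proteases that C1q carries were scarce, with C1ra at most 2.85 TPM and C1s1 at most 0.20 TPM. C3ar1, the receptor for the C3a fragment, had 0.40, 0.35 and 1.50 TPM in G643W libraries and 9.04, 1.97 and 1.05 TPM in WT libraries (-2.49 ± 0.93, SE, edgeR adjusted p = 0.498), and C2, the next protease of the classical pathway, had 1.94, 0.54 and 1.09 TPM in G643W libraries and 2.21, 4.17 and 1.40 TPM in WT libraries (-1.14, edgeR adjusted p = 0.525). C3, the central component, had 192, 625 and 585 TPM in G643W libraries and 19.0, 47.8 and 648 TPM in WT libraries, so it was low in WT library 1 where C1q was high. C4b had 55.3 TPM in WT library 1 and at most 5.19 TPM elsewhere.

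Of 10174 protein-coding genes tested with a mean of at least 1 TPM, 142 had Pearson's r above 0.9 over the 6 libraries with the mean log2 CPM of the C1q chains. The 8 closest were Ibtk, Acp5, Lgmn, Asph, Prss36, Ifi203, Tor1aip2 and Mfsd7a, with r from 0.979 to 0.997. Lgmn, the lysosomal protease legumain, had 2.99, 1.18 and 7.28 TPM in G643W libraries and 30.2, 8.70 and 6.65 TPM in WT libraries, and Acp5, tartrate-resistant acid phosphatase, had 1.74, 0.99 and 3.31 TPM in G643W libraries and 7.99, 3.67 and 2.42 TPM in WT libraries. Prss36 differed in TPM, with 0.39, 3.46 and 0.37 in G643W libraries and 3.40, 5.88 and 2.56 in WT libraries. In that unit it was high in G643W library 2, where the C1q chains were lowest. Ibtk ran from 11.9 to 20.1 TPM and Tor1aip2 from 11.3 to 20.9 TPM, far narrower ranges than those of the C1q chains. A high r thus did not mean a change of similar size. None of the 8 passed the test between genotypes (edgeR adjusted p from 0.493 to 0.673).

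Library totals ran from 61167075 to 101189225 estimated reads. Summed TPM of 12 neutrophil markers ran from 16164 to 184916 in G643W and from 2678 to 78690 in WT libraries, lowest in WT library 1, where C1q was highest, and highest in G643W library 2, where C1q was lowest. For 13 monocyte markers the sums were 5479 to 9493 in G643W and 6850 to 9732 in WT. Lyz2 (1749 to 6336 TPM) and Ly6c2 (1569 to 3727 TPM) made up most of these sums. Of the 13, 11 had negative log2 fold changes. In CPM 5 of the 13 were lower in G643W without overlap, a larger share than the 8.89% of all genes tested. For 11 dendritic cell markers the sums were 21.9 to 57.3 in G643W and 117 to 364 in WT. Bst2 (7.36 to 227 TPM) and H2-Eb1 (7.33 to 107 TPM) made up most of these sums. Of the 11, 10 had negative log2 fold changes. Zbtb46 and Xcr1, both under 1 TPM in all libraries, differed little, with log2 fold changes of -0.13 and 0.20. H2-Eb1, a class II chain, was the sole gene of any list that passed (log2 fold change -3.32, edgeR adjusted p = 0.0257). Sums were 35.4 to 84.6 in G643W and 23.8 to 35.3 in WT for 11 erythroid markers. Tfrc (15.9 to 64.2 TPM) was the largest part of the erythroid sum in every library, and Slc4a1 was under 1 TPM throughout. For 7 B cell markers the sums were 74.9 to 160 in G643W and 117 to 187 in WT. For 10 T and NK cell markers they were 51.96 to 99.5 in G643W and 14.9 to 168 in WT. Their part in the values above was not tested.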

How the data were processed

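RNA of 6 libraries, 3 G643W and 3 WT, was analysed from the authors' per-transcript Salmon tables. Per the submitters' processing notes, bcl2fastq and Salmon 0.12.0 were used with mm10 and GRCm38.p6; for the index, options and strand setting of Salmon the sources used here give nothing. The authors' tables hold, per the file headers, estimated counts of reads (not whole numbers), TPM, length and effective length of each transcript.

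Of 136288 transcripts per table, 136176 had an entry in GENCODE M21 (GRCm38) and gave 53458 gene sums, with no library losing over 0.0365% of its reads to the other 112. Gene sums of estimated counts were rounded, filtered by filterByExpr at a minimum count of 10, then TMM-scaled and tested across all 20654 genes kept with edgeR 4.0.16 (glmQLFit, glmQLFTest, genotype only, two-sided, Benjamini-Hochberg, threshold 0.05) in R 4.3.3. The SE was taken as the size of the log2 fold change over the root of the F statistic. Log2 CPM used a prior count of 2. Alternatives used DESeq2 1.42.0, limma 3.58.1 on log2 of TPM with 1 or 0.1 added, other scalings, filters and gene sets, counts scaled for length, a block on replicate number, and leaving out each library. All pairs of libraries differed beyond sampling noise. In a test on simulated counts (20654 genes, 50 changed per size), edgeR called 0% of the changes at 2-fold and 18% at 4-fold; at 8-fold it called 28%, and 60% of those at 16-fold.

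The 10 genes, the gene lists and the rule for names (the genes past the threshold in each list, otherwise its 2 lowest p-values, and the 8 genes closest to the C1q pattern) were chosen with earlier results of these data known. Genes outside that rule (Apoc1, Apoc2, Apoc4, Nr1h3, Gas6, Tyro3, C3, C4b, C1ra, C1s1, Spic, Lyve1, Stab1, Pdgfrb and the defining markers) were chosen after their values were seen. So were Egfl7, Flt1, Plvap, Bst2, Zbtb46, Xcr1, Tfrc, Hbb-bs and Hba-a2. Depth ran from 61167075 to 101189225 estimated reads, and symbols with several entries were read from the entry with the most reads.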

Additional observations from a re-analysis of the deposited data

How the results depend on the processing

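Under all 16 alternatives 0 of the 10 genes passed the threshold, and the log2 fold changes of C1qa, C1qb, C1qc, Cd163, Axl, Mertk and Apoe kept their sign. Adgre1 reversed with length-scaled counts (0.13), protein-coding genes alone (0.019) and limma on log2(TPM + 1) (0.11) and log2(TPM + 0.1) (0.11). Mrc1 reversed with limma on log2(TPM + 1) (0.15) and log2(TPM + 0.1) (0.46), and Vcam1 with the same (0.11 and 0.46). With 1 library left out Adgre1 ranged from -0.36 to 0.19, Mrc1 from -0.66 to 1.29 and Vcam1 from -1.97 to 0.39. The cause of these reversals was not tested.

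The count of all genes called, 25, moved to 15 with upper quartile scaling, 16 without a scaling factor, 104 without a filter, 10 with length-scaled counts, 2 on protein-coding genes alone (fewer genes tested), 43 with limma on log2(TPM + 0.1) and 428 with DESeq2, and to between 0 and 16 with 1 library left out (fewer samples). With the replicate number as a block it was 0, Mrc1 was 0.58 and Vcam1 0.48. Libraries with the same number correlated at 0.112, -0.165 and 0.176 in their deviations from the genotype means, so the numbers are not read as pairs. Depth limits Mertk most, at 8 to 154 estimated reads.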

Other observations

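Marker genes of other cell types were read from the same fit; apart from H2-Eb1 none of the genes listed for them passed the threshold. Neutrophil marker genes were very uneven. Of 12 such markers 12 were tested, with a median log2 fold change of 1.73. Camp, the cathelicidin of secondary granules, had 928, 14774 and 5483 TPM in G643W libraries and 54.4, 760 and 3682 TPM in WT libraries (log2 fold change 2.26 ± 1.46, SE, edgeR adjusted p = 0.587). Stfa2l1, a stefin of neutrophils, had 90.9, 8146 and 5720 TPM in G643W libraries and 160, 27.4 and 362 TPM in WT libraries (4.68 ± 1.58, SE, edgeR adjusted p = 0.493). For both genes G643W library 1 lay within the range of WT.

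Of 13 monocyte markers all were tested, with a median of -1.47. F13a1, a coagulation factor chain of monocytes, had 43.1, 10.8 and 36.1 TPM in G643W libraries and 144, 140 and 61.1 TPM in WT libraries (edgeR adjusted p = 0.454). For 11 dendritic cell markers the median was -2.74, and H2-Eb1 had 7.33, 8.18 and 10.99 TPM in G643W libraries and 107, 81.4 and 59.0 TPM in WT libraries. Cd34, a surface marker of progenitors, had 38.3, 5.82 and 19.9 TPM in G643W libraries and 64.7, 94.0 and 42.7 TPM in WT libraries (edgeR adjusted p = 0.477), and Itgam, which encodes the gated Mac1 antigen, had 61.8, 321 and 318 TPM in G643W libraries and 57.6, 46.8 and 199 TPM in WT libraries (edgeR adjusted p = 0.619).

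Of 11 erythroid markers 6 were under 1 TPM in all libraries, and the median log2 fold change was 1.25 over 8 tested. Higher levels were reached by Tfrc (15.9 to 64.2 TPM), Hbb-bs (0 to 29.2 TPM) and Hba-a2 (0 to 12.1 TPM). Gata1, the erythroid transcription factor, had 0.551, 0.856 and 0.57 TPM in G643W libraries and 0.114, 0.0469 and 0.0557 TPM in WT libraries (edgeR adjusted p = 0.340), and Hba-a1, an alpha globin, had 2.58, 1.98 and 4.18 TPM in G643W libraries and 0.856, 0.848 and 0.759 TPM in WT libraries (edgeR adjusted p = 0.527). The remaining genes named by rule had log2 fold changes of -1.25 for Sparc and 1.53 for Col1a1 among stromal markers, -1.06 for Pecam1 and 0.85 for Vwf among endothelial markers, 0.94 for Cd79a and -0.43 for Cd79b among B cell markers, and -2.02 for Klrb1c and 0.98 for Cd3d among T and NK cell markers (edgeR adjusted p from 0.488 to 0.571).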
